A study of Homo sapiens with 4 samples.

Results

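ATP-binding cassette (ABC) proteins were examined in Cp70sps cells, spheres derived from the Cp70 ovarian cancer line by selection for exclusion of the dye Hoechst3334, which the labels class as ovarian tumour-initiating cells. Members were all genes whose symbol in the array's probe annotation begins with ABCA to ABCG followed by a digit, together with TAP1 and TAP2. The rule found 44 genes with 74 probes, out of 18665 gene symbols on an array of 48803 probes. Of the 44 genes, 41 are protein-coding in RefSeq, and the other 3 are the pseudogenes ABCA11P and ABCA17P and the antisense RNA gene ABCC5-AS1. The rule used names only and no measured value. ABCC1, ABCC3, ABCC6, ABCC12 and the readthrough gene ABCF2-H2BK1 carried no named probe in the annotation used and were not analysed here.

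The spheres were kept in ultra-low attachment plates in a serum-free medium with insulin, albumin, bFGF and EGF. Exposure was to 3 µM of niclosamide for 0, 2, 4 or 6 h. The drug is used against tapeworms and is known to uncouple mitochondrial respiration. In each case total RNA was hybridised to Illumina bead arrays. Each time point is 1 array, so the 4 groups have 1 sample each, and the 0 h array is the only one from unexposed cells. All 4 arrays come from spheres derived by the same selection for dye exclusion, and no dye measurement is among the data used here. Cells that retained the dye and the unselected Cp70 line are not among the samples used here. A difference between times therefore carries no replicate error, and exposure cannot be told apart from time in culture or from the array itself. In bulk RNA, fewer cells with a transcript and less transcript per cell cannot be told apart.

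ABC proteins couple the binding and hydrolysis of ATP to the movement of substrates across membranes. They include plasma membrane pumps for drugs and dyes, lipid exporters, transporters of mitochondria, peroxisomes and lysosomes, and the peptide transporters of antigen presentation. The ABCE and ABCF proteins lack membrane domains and act on ribosomes. Exclusion of Hoechst dyes, which defines the side population of many tissues and tumours, is attributed mainly to the pump ABCG2 and also to ABCB1 (P-glycoprotein).

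Between 28.3% and 29.6% of probes were detected per array at a detection p under 0.01, which compares a probe with the negative controls of its own array. The median signal was between 62.4 and 66.0 intensity units, and the lowest detected signal between 107 and 121 units. Of the ovarian and epithelial markers, 4 of 11 were detected (EPCAM, KRT8, KRT18 and KRT19), and PAX8, WT1, MUC16, MSLN, ESR1, KRT7 and CDH1 were not. All but KRT8 of these 4 were detected on every array. Of the tumour-initiating markers ALDH1A1 was detected, 1 of 8, whereas CD44, KIT, PROM1, ABCG2, NANOG, POU5F1 and SOX2 were not. None of the leukocyte (0 of 4), endothelial (0 of 4) or erythroid (0 of 2) markers with a probe was detected, but 3 of 5 fibroblast markers were (COL1A2, COL3A1 and DCN).

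ABCG2 was not detected on any of the 4 arrays. Its single probe gave raw signals of 46.5, 48.2, 45.9 and 54.8 units at 0, 2, 4 and 6 h. All of them were below the median signal of all probes on the same array. The detection p of that probe was 0.949, 0.752, 0.879 and 0.544 in the same order, and ABCG2 was also undetected at a threshold of 0.05.

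ABCB1 was not detected at 0.01 either. The brighter of its probes gave raw signals of 82.0, 77.4, 76.9 and 81.4 units at 0, 2, 4 and 6 h, with detection p of 0.0382, 0.0395, 0.0395 and 0.0382. These lie above the array medians, nearly level over the time course, and would pass at 0.05. The other ABCB1 probe had a detection p between 0.166 and 0.689 and passes neither threshold. ABCG2 has 1 probe, and there is no independent readout of either transcript. Absence of a call says only that these probes did not reach a detection p under 0.01 against the negative controls.

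Of the 14 members and relatives listed as Hoechst or multidrug pumps, 10 had a probe and 5 were detected, all 5 of them on every array: ABCA2, ABCA3, ABCC4, ABCC5 and ABCC10. The other 5 were ABCG2, ABCB1, ABCB5, ABCC2 and ABCC11. The probe of ABCB5, a drug pump described in melanoma-initiating cells, had a detection p between 0.495 and 0.937. ABCC2, an exporter of conjugated organic anions, had 0.0975 to 0.232. ABCC11, an exporter of nucleotide analogues and lipophilic anions, came nearer, with 0.0158 to 0.0277 for the brightest of its 3 probes.

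The promoters of the 2 genes to which Hoechst efflux is mainly attributed are shown because neither transcript was detected. They run from 250 bases before to 50 bases after a RefSeq transcription start (GRCh38.p14), and for genes with several starts the window of highest GC content was taken. The ABCG2 window, chr4:88158810-88159109 on the minus strand, is 1 of 5 and has 72.3% GC, and the ABCB1 window, chr7:87600835-87601134 on the minus strand, is 1 of 2 and has 55.3% GC. Capitals mark the motifs found on either strand among 5 searched. These were the GC box GGGCGG, the CCAAT box, the E box CACGTG, the interferon regulatory factor core GAAANNGAAA and the cyclic AMP element TGACGTCA.
ABCG2: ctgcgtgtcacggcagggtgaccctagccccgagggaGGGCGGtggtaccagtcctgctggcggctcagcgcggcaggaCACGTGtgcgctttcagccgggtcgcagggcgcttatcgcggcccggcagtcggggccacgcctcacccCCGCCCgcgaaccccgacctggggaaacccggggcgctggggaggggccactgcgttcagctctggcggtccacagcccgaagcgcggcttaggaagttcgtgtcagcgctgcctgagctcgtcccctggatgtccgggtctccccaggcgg
ABCB1: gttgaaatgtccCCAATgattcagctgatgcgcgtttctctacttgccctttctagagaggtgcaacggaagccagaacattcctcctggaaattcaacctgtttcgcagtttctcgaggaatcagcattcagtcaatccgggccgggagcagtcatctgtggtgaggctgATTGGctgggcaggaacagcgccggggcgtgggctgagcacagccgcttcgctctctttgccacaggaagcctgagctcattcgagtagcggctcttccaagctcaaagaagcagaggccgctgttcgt
The ABCG2 window holds 2 GC boxes and 1 E box, and the ABCB1 window holds 2 CCAAT boxes and no GC box. Among 35116 RefSeq promoter windows of the same length, 45% hold a GC box, 34.6% a CCAAT box, 7.26% an E box, 3.57% the interferon regulatory factor core and 1.85% the cyclic AMP element. Windows were found for 36 of the 44 members, 52 in all. Of these 52 windows a GC box was present in 28 (53.8%), a CCAAT box in 13 (25%), an E box in 9 (17.3%), the interferon regulatory factor core in 4 (7.69%) and the cyclic AMP element in 1 (1.92%). Windows of 1 gene can overlap, so they are not independent. A match describes letters only and is not a bound site.

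In all, 22 of 44 members (50%) passed detection on 1 array or more, and 19 of them on every array, beside 9771 of 18665 gene symbols on the whole array (52.3%). At the probe level 30 of 74 member probes passed. All 3 ABCF genes, ABCE1, TAP1 and TAP2 were detected. Of the ABCA genes 6 of 14 were detected, of the ABCB genes 4 of 8, of the ABCC genes 4 of 8, of the ABCD genes 1 of 3 and of the ABCG genes 1 of 5. ABCG1 was the detected ABCG gene, and its relatives ABCG4, ABCG5 and ABCG8 were not detected at 0.01, although ABCG5 and ABCG4 had a detection p as low as 0.0105.

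Beside the genes already named, the undetected members were ABCA4, ABCA6, ABCA8, ABCA9, ABCA10, ABCA12, ABCA13, ABCA17P, ABCB4, ABCB11, ABCC9, ABCC5-AS1, ABCD2 and ABCD4. A threshold of 0.05 added 8 members: ABCA4, ABCA9, ABCA12, ABCB1, ABCC11, ABCD2, ABCG4 and ABCG5. Among detected members 3 were called on a single array. ABCA5 and ABCA11P were detected at 4 h alone, and ABCB8 at 2 h alone.

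**Figure D1:**
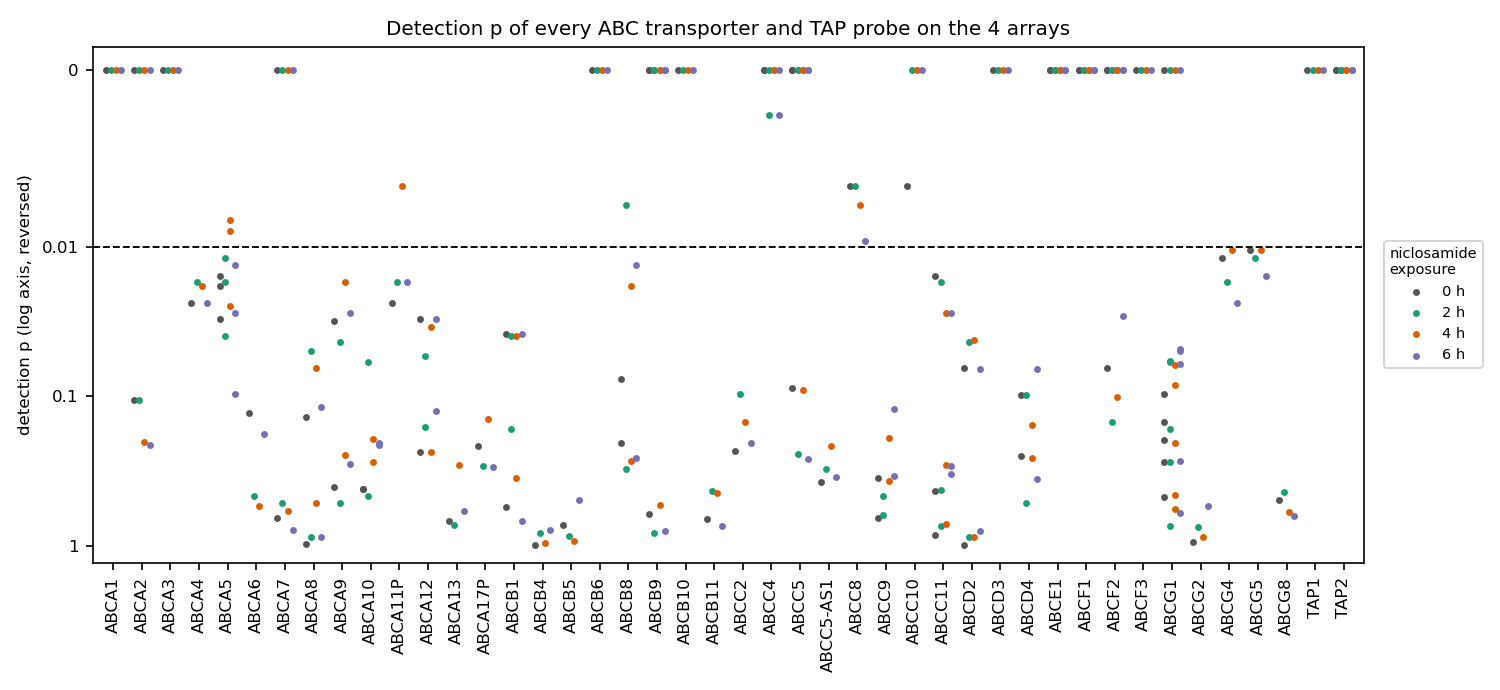
Detection p (log axis, reversed so that stronger detection is higher) of all 74 probes of the 44 members, by gene and coloured by hours of niclosamide, with the threshold of 0.01 dashed. ABCG2 lies between 0.544 and 0.949 on all 4 arrays, ABCB1 has 1 probe near 0.04 throughout, and each ABCE, ABCF and TAP gene has at least 1 probe past the threshold on every array.

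Changes over the time course were given as log2 differences from the 0 h array, using for each gene the brightest of its detected probes. The 3 comparisons share the 0 h array. At 2 h, 1 of 19 measured members was at least 1.5-fold higher (ABCA2), beside 7.86% of 9120 genes measured, and 2 were at least 1.5-fold lower (ABCB9 and ABCG1), beside 7.99%. At 4 h, 0 members were higher, beside 4.25% of 9217 genes, and 2 were lower (ABCA3 and ABCG1), beside 4.58%. At 6 h, 2 members were higher (ABCA2 and ABCF3), beside 9.44% of 9044 genes, and 4 were lower (ABCA3, ABCB9, ABCC8 and ABCG1), beside 9.8%. With 19 members 1 gene moves a share by 5.26%, and nothing is read from these counts about the members as a group. The same shares of all genes are the background of each list counted at 1.5-fold.

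At a fold of 2, ABCA2 passed upwards at 2 h (1.35% of all genes did) and ABCG1 passed downwards at 2 h (1.29%) and 6 h (1.93%). At 4 h 0 members passed in either direction (0.217% of all genes higher and 0.423% lower), and 0 were higher at 6 h (1.77%). The median log2 difference of the members was 0.01 at 2 h, 0.05 at 4 h and -0.04 at 6 h, beside -0.02, 0.01 and -0.02 over all measured genes. The median size of the difference, without sign, was 0.37, 0.23 and 0.35 for the members and 0.26, 0.22 and 0.29 for all genes. The members thus had no common direction: 10 were above and 9 below 0 at 2 h, 11 and 8 at 4 h, and 8 and 11 at 6 h.

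**Figure D2:**
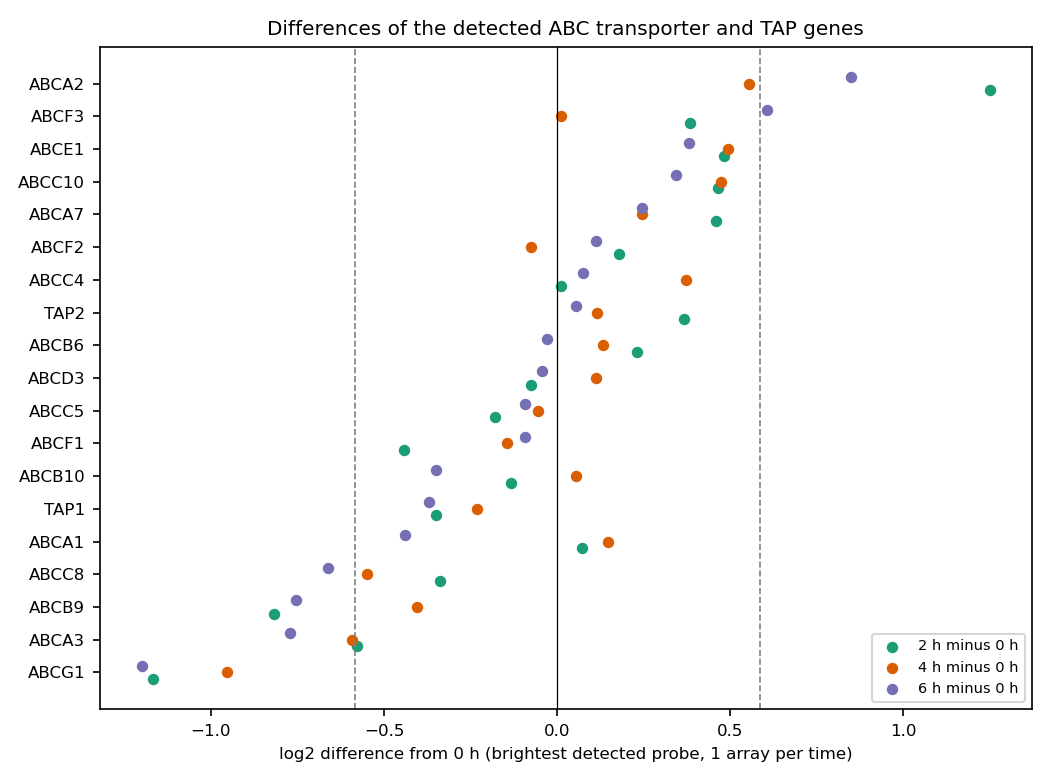
Log2 difference from the 0 h array of the 19 members detected on all 4 arrays at 2 h, 4 h and 6 h (1 array per time, brightest detected probe), ordered by the 6 h value, with 1.5-fold dashed. ABCA2 is highest, at 1.25 at 2 h and 0.85 at 6 h, and ABCG1 lowest, at -1.17 and -1.20.

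Against the 2 h array, 0 of 19 members were 1.5-fold higher at 6 h, beside 1.52% of 9202 genes, and 0 were lower, beside 1.34%. The median over the members was -0.10, beside 0.00 over all genes, and 13 of the 19 were lower at 6 h than at 2 h. ABCA1 had the largest difference in this interval, at -0.51. Between 2 h and 4 h, 0 members were 1.5-fold higher (2.12% of 9307 genes) and 1 was lower, ABCA2 at -0.70 (2.8%). The differences of 1.5-fold or more from 0 h thus lay mostly between the 0 h array and the others, which rests on that single array.

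A linear trend over hours, fitted with limma across 9771 genes, called 0 of the 22 detected members at a Benjamini-Hochberg adjusted p under 0.05. Over all genes it called 2 rising (0.0205%) and 1 falling (0.0102%). At an unadjusted p under 0.05, 0 members had a rising slope and 3 a falling one, beside 7.1% of all genes rising and 7.2% falling. These were ABCG1, with a slope of -0.17 per hour on the log2 scale (SE 0.0569, adjusted p = 0.250 by limma), ABCA3 with -0.12 (SE 0.0427, adjusted p = 0.280) and ABCC8 with -0.11 (SE 0.0463, adjusted p = 0.321). The fit has 2 residual degrees of freedom and treats any departure from a line as error, so a change complete by 2 h is penalised.

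Of the 5 detected genes listed as Hoechst or multidrug pumps, which do not include ABCG2 or ABCB1, ABCA2 gave the largest increase. That increase was also the largest of any measured member. ABCA2 is an endolysosomal transporter associated with estramustine resistance and with lipid handling. Its log2 values were 8.37, 9.62, 8.92 and 9.22 at 0, 2, 4 and 6 h. All 3 exposed arrays lie above the 0 h array, with the highest value at 2 h. The difference was 1.25 at 2 h, which is 2.38-fold and was exceeded by 45 of 9120 genes, 0.55 at 4 h, and 0.85 at 6 h, which is 1.80-fold and was exceeded by 307 of 9044 genes. A second ABCA2 probe was undetected on all arrays, so the gene rests on 1 probe.

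ABCA3 was lower at every later time. ABCA3 loads phospholipid into lysosome-related organelles, including lamellar bodies of the lung, and has been linked to drug sequestration in leukaemia. Its log2 values were 10.25, 9.68, 9.66 and 9.48 at 0, 2, 4 and 6 h. The 0 h array is the highest and the 6 h array the lowest. The differences were -0.58, -0.59 and -0.77, the last being 1.71 times lower, again from 1 probe. The 4 h value is at the edge of 1.5-fold and was -0.43 with the arrays scaled to 1 median.

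ABCC4, ABCC5 and ABCC10 are multidrug resistance proteins of the ABCC subfamily. ABCC4 and ABCC5 are known to export cyclic nucleotides and nucleotide analogues, and ABCC10 taxanes among other drugs. ABCC10 had log2 values of 6.91, 7.38, 7.39 and 7.26 at 0, 2, 4 and 6 h, so the 3 exposed arrays were 0.47, 0.47 and 0.34 higher, below 1.5-fold. Its 0 h signal was close to the detection threshold, with a detection p of 0.00395. With each array scaled to 1 median, ABCC10 passed 1.5-fold at 2 h and 4 h. ABCC5 had 9.46, 9.28, 9.40 and 9.37, with differences of -0.18, -0.05 and -0.09. Its second probe had differences of 0.09, 0.31 and 0.02, so the signs of the probes differ.

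ABCC4 had log2 values of 8.02, 8.03, 8.39 and 8.09 at its brighter probe, with the 4 h array highest. At its second probe it had 7.77, 7.16, 7.63 and 7.14, with the 2 h and 6 h arrays lowest. The 6 h difference was 0.07 for the former and -0.63 for the latter. No direction is therefore given for ABCC4. Of the 5 detected genes of the pump list, 1 was 1.5-fold higher at 2 h, 1 lower at 4 h, and 1 higher and 1 lower at 6 h. Over all genes 7.86% were higher at 2 h, 4.58% lower at 4 h, and 9.44% higher and 9.8% lower at 6 h.

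ABCG1 had the largest decrease of any member. ABCG1 exports cholesterol to high-density lipoprotein and is a textbook target of the liver X receptors. Its log2 values were 9.99, 8.82, 9.03 and 8.79 at 0, 2, 4 and 6 h. The 0 h array stands above the 3 exposed arrays, which lie close together. The differences of -1.17, -0.95 and -1.20 correspond to values 2.24, 1.94 and 2.30 times lower. At 2 h, 57 of 9120 genes had a larger decrease, and at 6 h 69 of 9044 did. Only 1 of the 6 ABCG1 probes was detected, and the other 5 cannot be read for a change.

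ABCA1, the exporter of cholesterol and phospholipid to apolipoprotein A-I and likewise a liver X receptor target, had log2 values of 9.05, 9.12, 9.19 and 8.61 at 0, 2, 4 and 6 h. The first 3 arrays were nearly level, and the 6 h array was lower by a log2 difference of -0.44, which is under 1.5-fold. ABCA7, a phospholipid transporter related to ABCA1, had 9.12, 9.58, 9.37 and 9.37. All 3 exposed arrays were above 0 h, by 0.46, 0.25 and 0.25. Of the 11 lipid and sterol transporters listed, 4 were detected (ABCA1, ABCA3, ABCA7 and ABCG1). Of these, 0 were higher and 1, 2 and 2 lower by 1.5-fold at 2, 4 and 6 h. Over all genes 7.86%, 4.25% and 9.44% were higher and 7.99%, 4.58% and 9.8% lower at those times.

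Of the genes known to regulate ABC transporter expression, 17 of 24 with a probe were detected. At 6 h 2 were 1.5-fold higher and 4 lower, beside 9.44% and 9.8% of all genes. The median was 0.03, beside -0.02 over all genes. IRF1, an interferon-responsive transcription factor, had log2 values of 10.05, 7.98, 8.80 and 7.79, with 0 h the highest. PPARD, a lipid-activated nuclear receptor, differed from 0 h by 1.07, 0.45 and 1.03. NFE2L2 (NRF2), the master regulator of the antioxidant response, differed by 0.29, 0.58 and 0.79, and MYC by -0.13, -0.23 and -0.66. None passed the trend test, and a relation to the transporter genes was not tested.

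The mitochondrial transporters ABCB6, ABCB8 and ABCB10 all had a detected probe. ABCB6, a porphyrin transporter also placed in lysosomes and at the plasma membrane, had log2 values of 10.91, 11.14, 11.04 and 10.88 at 0, 2, 4 and 6 h. Its largest difference from 0 h was 0.23. ABCB10, an inner membrane transporter needed for haem synthesis, had 9.0, 8.86, 9.05 and 8.65, with the 6 h array lowest at a difference of -0.35. ABCB8, linked to mitochondrial iron export, was detected at 2 h alone, where its value was at least 1.14-fold that of the 0 h array, at least 1.35-fold that of 4 h and at least 1.15-fold that of 6 h. Each bound takes the lowest level called on the array where ABCB8 was undetected.

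Their iron-sulphur and haem partners were detected in 11 of 11 cases. At 2 h 3 of 10 measured were 1.5-fold lower, at 4 h 0 of 11 and at 6 h 2 of 10, with 0 higher at any time. Over all genes 7.99%, 4.58% and 9.8% were lower in that order. The median at 6 h was -0.27, beside -0.02 over all genes. The 2 lower at 6 h were the last enzymes of haem synthesis. FECH, which inserts iron into protoporphyrin, differed from 0 h by -0.78, -0.41 and -0.72, and PPOX, which makes protoporphyrin, by -0.74, -0.47 and -0.72.

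Of the peroxisomal and lysosomal ABCD transporters, ABCD3 alone was detected among the 3 with a probe. ABCD3 imports branched-chain acyl-CoA into peroxisomes. Its log2 value was 7.50, 7.42, 7.61 and 7.45 at 0, 2, 4 and 6 h, with no difference from 0 h above 0.11 in size. Of the listed partners of the ABCD transporters 9 of 11 were detected, with 1 lower by 1.5-fold at 2 h, 0 at 4 h and 1 at 6 h. The last was MMACHC, the cobalamin-processing enzyme that works downstream of the lysosomal ABCD4, at -0.94, whereas ABCD4 itself was undetected. Over all genes 7.99% were 1.5-fold lower at 2 h, 4.58% at 4 h and 9.8% at 6 h.

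TAP1 and TAP2 form the heterodimer that carries peptides into the endoplasmic reticulum for loading onto class I molecules. TAP1 had log2 values of 11.20, 10.85, 10.97 and 10.83 at 0, 2, 4 and 6 h. The 0 h array was the highest, and the differences of -0.35, -0.23 and -0.37 were under 1.5-fold. TAP2 had 8.21, 8.58, 8.33 and 8.27, and its second probe 7.46, 7.69, 7.75 and 7.95. Both TAP2 probes were above 0 h on all 3 exposed arrays, by 0.05 and 0.50 at 6 h, also under 1.5-fold.

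The TAP1 promoter is shown because its known regulators include IRF1, whose own values are given above. The window chr6:32853655-32853954 on the minus strand (GRCh38.p14, RefSeq) is the one with the highest GC content, 63%, of 2.
TAP1: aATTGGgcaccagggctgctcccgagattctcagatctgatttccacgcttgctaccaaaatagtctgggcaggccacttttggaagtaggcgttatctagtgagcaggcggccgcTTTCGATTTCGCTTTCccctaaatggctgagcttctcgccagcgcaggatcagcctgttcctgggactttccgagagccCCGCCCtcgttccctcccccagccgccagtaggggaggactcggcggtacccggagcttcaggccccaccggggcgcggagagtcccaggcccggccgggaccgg
Capitals mark 1 CCAAT box at the left end, 2 overlapping matches to GAAANNGAAA, read on the other strand, and 1 GC box. Binding was not measured.

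Of the peptide loading and class I presentation genes, 14 of 17 with a probe were detected. At 2 h 4 of 13 measured were 1.5-fold higher and 0 lower, at 4 h 0 and 1, and at 6 h 4 and 1. Over all genes 7.86% were higher and 7.99% lower at 2 h, 4.25% and 4.58% at 4 h, and 9.44% and 9.8% at 6 h. The median at 6 h was 0.19, beside -0.02 over all genes. The chaperone CALR differed from 0 h by 0.96, 0.10 and 0.96, TAPBP (tapasin), which bridges TAP and class I molecules, by 0.74, 0.49 and 0.69, and the trimming peptidase ERAP2 by 0.67, 0.57 and 0.63. The immunoproteasome subunit PSMB10 went the other way, by -0.44, -0.77 and -0.82. TAPBP had 3 detected probes and ERAP2 had 2, and only the brightest of each is given.

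ABCB9 (TAPL), a lysosomal peptide transporter related to TAP, gave opposite results at its probes. The brighter probe had log2 values of 9.85, 9.03, 9.45 and 9.10 at 0, 2, 4 and 6 h, with 0 h the highest. The second probe had 8.51, 9.08, 9.30 and 9.25, with 0 h the lowest. At 6 h the differences were -0.75 and 0.74. The 1.5-fold decrease counted for ABCB9 is thus a property of 1 probe, and which transcripts each probe reads was not given in the sources used here.

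The 4 ABC proteins that act in translation were detected on every array. ABCE1, which splits ribosomes for recycling, had log2 values of 10.34, 10.82, 10.84 and 10.72 at 0, 2, 4 and 6 h. All 3 exposed arrays were above 0 h, by 0.48, 0.49 and 0.38, and the second probe was above as well, by 0.30, 0.56 and 0.21. ABCF3, a relative of the yeast Gcn20 protein, had 7.60, 7.98, 7.61 and 8.21. The 6 h array was highest, 1.52-fold above 0 h (under 1.5-fold with an offset of 50), whereas the 4 h array equalled 0 h within 0.01.

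ABCF1, which binds the initiation factor eIF2, had 11.24, 10.79, 11.09 and 11.14 at its brighter probe and 9.98, 10.48, 10.53 and 10.77 at its second. The former was lower than 0 h on every exposed array and the latter higher. At 6 h the differences were -0.09 and 0.79. ABCF2 had 9.71, 9.89, 9.63 and 9.82, within 0.18 of 0 h, and its second probe had differences of 0.38, 0.36 and 0.47. Of the ribosome recycling and rescue partners of ABCE1, 8 of 9 were detected. Of these, 0 were past 1.5-fold at 2 h and 4 h and 1 was lower at 6 h (EIF1AX, an initiation factor, at -0.61). Over all genes 7.86% were higher and 7.99% lower at 2 h, 4.25% and 4.58% at 4 h, and 9.44% and 9.8% at 6 h.

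**Figure D3:**
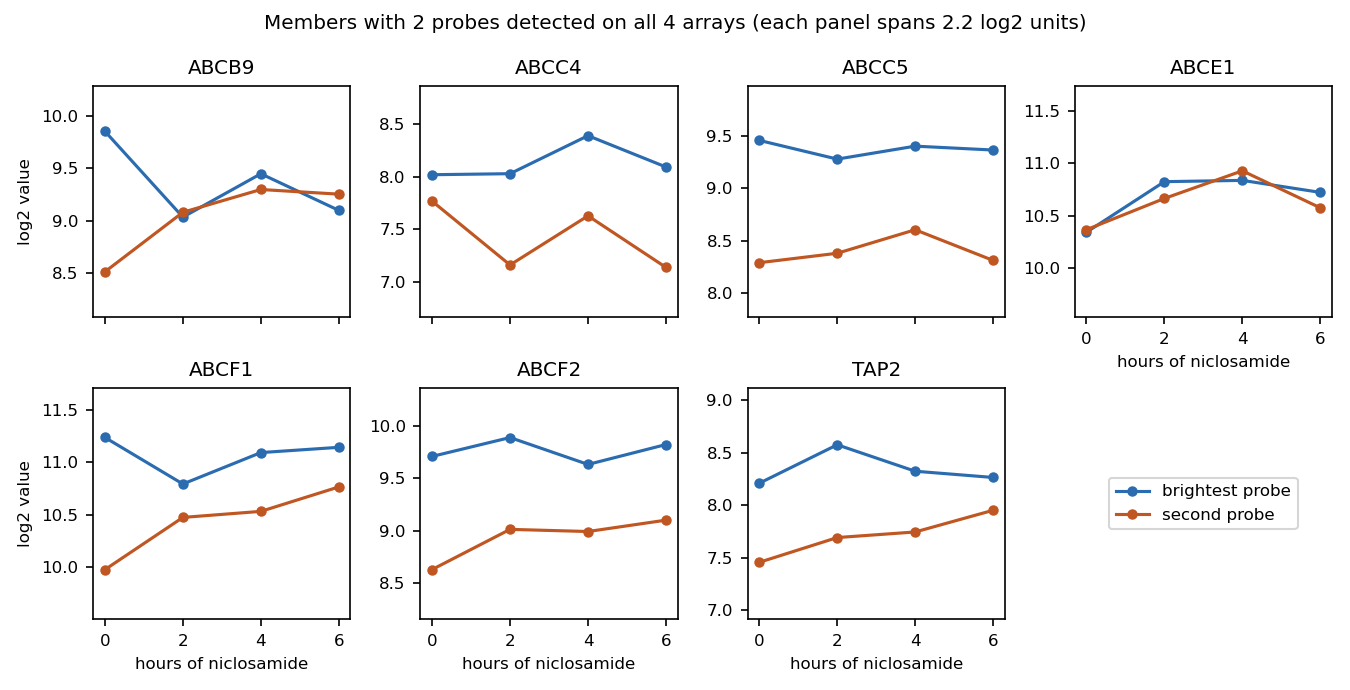
Log2 values over hours of niclosamide for the 7 members with a pair of probes detected on all 4 arrays (blue brightest, orange second, every panel spanning 2.2 log2 units, lines joining single arrays). ABCE1 and TAP2 have the same direction from 0 h at both probes, whereas ABCB9, ABCC4, ABCC5 and ABCF1 have opposite directions at all 3 later times.

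Probe pairs of 1 gene give a second reading on the same arrays, although both need not read the same transcripts. Of 7 members with a pair of probes detected on all arrays, the signs of the difference from 0 h were the same in 3 at 2 h, 2 at 4 h and 3 at 6 h. Over 1710 genes with such pairs the signs were the same in 53.3%, 64% and 60.8%. The median gap between the probes' log2 differences was 0.27, 0.44 and 0.44 for the members and 0.30, 0.21 and 0.28 for all genes. Of the 6 members past 1.5-fold at 6 h, 5 had 1 detected probe, and the sixth was ABCB9.

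ABCC8, the sulphonylurea receptor, forms the regulatory subunit of ATP-sensitive potassium channels and is no pump. Its log2 values were 6.97, 6.64, 6.43 and 6.31 at 0, 2, 4 and 6 h. The values were in descending order with time, and the 6 h value was 1.58 times below that of 0 h, a call lost with another scaling or a larger offset. The signals were close to the detection threshold, with detection p between 0.00395 and 0.00922. ABCC9, its relative in the same channels, was undetected.

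Of the members called on the 4 h array alone, the pseudogene ABCA11P was at least 1.28-fold above 0 h, 1.35-fold above 2 h and 1.28-fold above 6 h. ABCA5, a lysosomal transporter, gave no bound above 1.

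The glutathione enzymes, which supply substrate and conjugates to the ABCC pumps, were detected in 13 of 17 cases. At 2 h and 4 h 0 were 1.5-fold higher and 1 was lower, and at 6 h 1 was higher and 1 lower. Over all genes 7.86% were higher and 7.99% lower at 2 h, 4.25% and 4.58% at 4 h, and 9.44% and 9.8% at 6 h. GCLM, a subunit of the enzyme limiting glutathione synthesis, differed from 0 h by 0.47, 0.47 and 0.71, and GSTZ1 by -0.99, -0.66 and -0.96. The median of the list at 6 h was -0.01, beside -0.02 over all genes.

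**Figure D4:**
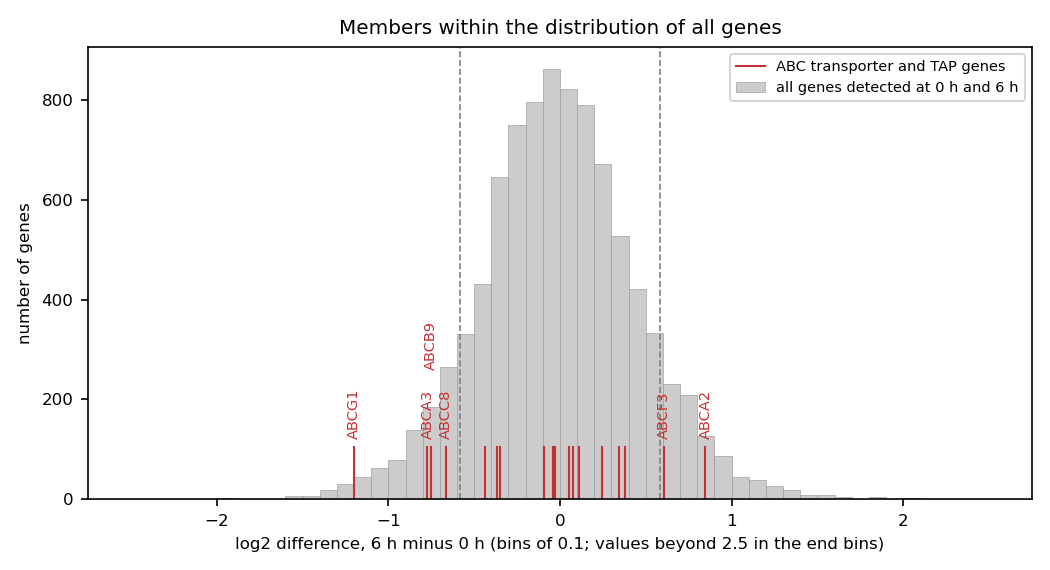
Number of genes (bars, bins of 0.1) by log2 difference between the 6 h and 0 h arrays for 9044 genes, with the 19 members as red lines and 1.5-fold dashed. The members spread over the distribution with a median of -0.04 beside -0.02 for all genes, and ABCG1 at -1.20 lies farthest out.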

How the data were processed

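The authors' deposited non-normalized table gives an intensity per probe and array and, per the file headers, a detection p-value per probe. BeadStudio is named in the submitters' processing notes, and its version is not given in the sources used here. The deposited processed intensity values equal a quantile normalization of the former within 1.48%, without background subtraction. The annotation used names 1 symbol for 27578 of 48803 probes and several for 13, and leaves 21212 unnamed.

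Intensities were background-corrected (normexp, negative controls inferred from detection p), given an offset of 16, quantile normalized and taken to log2 with limma 3.58.1 in R 4.3.3. Detection means p under 0.01. A gene is its brightest detected probe, and levels of different probes are not compared. Companion genes with several detected probes are given by the brightest alone, and agreement of their probes is not shown. Counts at 1.5-fold and 2-fold cover genes called on both arrays, with no test, since each time has 1 array, and the number of arrays limits the precision. The trend over hours used limma's eBayes with an intensity trend, 2-sided, over 9771 genes, and the procedure was tested on simulated data. The simulated slopes were steeper than that of any member, so that test does not bear on slopes of the size seen here. Every detected member was named, and of each companion list at most the 4 largest 6 h differences, with SLCO4A1 added after its values were seen. The raw signals of ABCG2 and ABCB1 were added to that rule because dye exclusion concerns them. The members and lists were chosen with earlier results of these data known. Promoter sequences are from RefSeq (GRCh38.p14). The deposited files name no build, so the only positions given are those of the 3 RefSeq promoter windows. Alternatives were another scaling, the authors' processed values, an offset of 50, detection at 0.05, the mean of detected probes, and no intensity trend.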

Additional observations from a re-analysis of the deposited data

How the results depend on the processing

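With each array scaled to 1 median, 2 members were 1.5-fold higher at 2 h (ABCA2 and ABCC10), 3 were higher (ABCA2, ABCC10 and ABCE1) and 1 lower (ABCG1) at 4 h, and the trend called 17 genes rising and 5 falling, none of them members. That scaling moved the median of all genes at 4 h from 0.01 to 0.15. With the authors' processed values, and likewise with an offset of 50, 1 member was lower at 4 h (ABCG1) and 1 higher at 6 h (ABCA2), and ABCC8 and ABCF3 lost their 1.5-fold difference at 6 h. At a detection p under 0.05, 30 members were detected and 1 was higher at 4 h (ABCA11P). With the mean of detected probes 1 member was lower at 2 h (ABCG1) and the trend called 0 falling. Without an intensity trend it called 0 rising and 0 falling. With the 2 h array as the reference, chosen after seeing the data, 1 member was lower at 4 h, and 0 were higher and 0 lower at 6 h.

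At 6 h 16 of 19 members kept their sign under median scaling (not ABCB6, ABCC5 and ABCD3), 17 with the mean of probes (not ABCC4 and ABCF1) and 19 under the other 3 alternatives. ABCC8 lost its 1.5-fold difference under median scaling, and ABCB9 with the mean of probes, at -0.01. The lowest adjusted p of any member's trend was between 0.216 and 0.302 over the alternatives. No paired analysis was possible because each time has 1 array, and leaving an array out removes a time. Signals near the negative controls limit every statement on undetected members.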

Other observations

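Of a list of drug and solute carriers outside the ABC family, mostly uptake transporters, 5 of 15 genes with a probe were detected (SLCO2A1, SLCO4A1, SLC22A5, SLC31A1 and the exporter SLC47A1). SLC31A1, the copper importer also linked to uptake of platinum drugs, had log2 values of 10.39, 10.78, 10.81 and 11.15 at 0, 2, 4 and 6 h, with 0 h the lowest and 6 h the highest. Its 6 h difference of 0.76 was past 1.5-fold. SLC47A1, a proton-coupled exporter of organic cations, differed from 0 h by -0.16, -0.19 and -0.26. SLC22A5, the carnitine transporter, differed by -0.13, 0.08 and 0.24, and SLCO2A1, a prostaglandin transporter, by -0.20, -0.10 and -0.22. SLCO4A1, an organic anion transporter chosen after its values were seen, had 9.79, 10.53, 9.80 and 9.97, past 1.5-fold at 2 h at 0.74 and back near the 0 h value at 4 h. Over all genes 7.86% were 1.5-fold higher at 2 h and 9.44% at 6 h. The median of the 5 at 6 h was 0.18, beside -0.02 over all genes, and 0 passed the trend test at an adjusted p under 0.05 by limma.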
